A study of Mus musculus with 20 samples.

Results

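The interferon-stimulated genes of mouse liver described here are *Ifit1*, *Ifit3*, *Oas1a*, *Rsad2*, *Zbp1*, *Gbp2*, *Isg15*, *Usp18* and *Irf7*. These 9 members were chosen by symbol among the 46078 genes of the count table, and each symbol matched 1 Ensembl gene. All 9 had enough counts to be among the 14759 genes tested.

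Livers of 20 male mice on a 129/C57BL/6 background, at least 9 weeks old, were compared after 2 days of diet. *Cse*, listed in the counts as *Cth*, encodes cystathionine γ-lyase, the enzyme that releases cysteine from cystathionine, so that mice without it rely on cysteine from food. *Cse*+/- mice received the control diet (n = 2), a diet without cysteine (no-Cys, n = 4) or a diet without tryptophan (no-Trp, n = 3). *Cse*-/- mice were given food without cysteine (n = 4), food without tryptophan (n = 3) or the latter with L-buthionine sulfoximine (BSO, n = 4), an inhibitor of the first step of glutathione synthesis. All groups shared calorie restriction and a defined amino acid diet, in which the other amino acids were raised to replace the one removed. GEO's labels give the control genotype as WT, whereas the study's list of animals gives it as heterozygous, and the second name is used. No *Cse*-/- liver on the control diet and no *Cse*+/- liver with BSO was analysed here, so that BSO was compared only within *Cse*-/- mice.

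Libraries held 11785740 to 57986121 counts on genes (median 15252745). *Cth* was at 88.4 CPM (counts relative to library size, scaled with edgeR's TMM factors) or more in every *Cse*+/- liver and at 14.4 CPM or less in every *Cse*-/- liver. The summed level of 5 hepatocyte markers was between 37967 and 106899 CPM. A pair of mice on the no-Cys diet stood apart in *Cth*: av01 (*Cse*+/-) had 332 CPM where its group had 121 to 132 CPM, and av08 (*Cse*-/-) had 13.3 CPM where its group had 6.37 to 7.04 CPM. For the 9 genes, calls without either mouse are also given. The labels describe the libraries as biological replicates, and p-values measure the spread between mice.

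Interferons are cytokines of antiviral and antibacterial defence. Type I interferons bind their receptor and activate the kinases JAK1 and TYK2. Transcription factors switched on by these kinases bind the interferon-stimulated response element (ISRE) in the promoters of interferon-stimulated genes, while interferon-γ acts through the gamma-activated site (GAS). In liver, hepatocytes, Kupffer cells and endothelium respond to interferons, and a low tonic level of these genes is known in tissues without infection.

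*Ifit1* (ENSMUSG00000034459, chromosome 19, 34640871 to 34650009) and *Ifit3* (ENSMUSG00000074896, chromosome 19, 34583531 to 34588731) lie near each other and encode tetratricopeptide repeat proteins, of which IFIT1 binds viral RNA with an unmethylated cap. *Oas1a* (ENSMUSG00000052776, chromosome 5, 120896256 to 120907521) encodes an oligoadenylate synthetase, which activates RNase L on sensing double-stranded RNA. *Rsad2* (ENSMUSG00000020641, chromosome 12, 26442746 to 26456452) encodes viperin, a radical SAM enzyme that makes a chain-terminating nucleotide. *Zbp1* (ENSMUSG00000027514, chromosome 2, 173206612 to 173218923) encodes a sensor of Z-form nucleic acid that engages RIPK3. *Gbp2* (ENSMUSG00000028270, chromosome 3, 142620602 to 142638008) encodes a guanylate-binding GTPase that acts on intracellular pathogens. *Isg15* (ENSMUSG00000035692, chromosome 4, 156199424 to 156200818) encodes a ubiquitin-like modifier, and *Usp18* (ENSMUSG00000030107, chromosome 6, 121245906 to 121270917) the protease that removes it, which also restrains signalling at the type I receptor. *Irf7* (ENSMUSG00000025498, chromosome 7, 141262706 to 141266481) encodes the transcription factor that amplifies type I interferon production. Positions are those of GRCm38 in GENCODE M21.

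Promoter sequence was examined because these genes are defined by their response to factors that bind it. RefSeq (GRCm38.p6) promoters of 300 bases, from 250 before to 50 after the start site, were matched for 7 of the 9 members. *Usp18* and *Zbp1* had no entry. The letters GAAANNGAAA, on either strand, were used for the ISRE and occurred in 6 of the 7 promoters, against 3.45% of 32544 promoters. The letters TTCNNNGAA, on either strand, were used for the GAS and occurred in 1 of the 7 promoters, that of *Oas1a*, against 8.33% of all promoters. The stretches with ISRE letters are printed 5′ to 3′ on the strand of the gene, with the matched letters in capitals. Matches overlap in *Isg15* (3 matches) and *Oas1a* (2 matches).

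Ifit1, chr19:34640764-34640833, plus strand: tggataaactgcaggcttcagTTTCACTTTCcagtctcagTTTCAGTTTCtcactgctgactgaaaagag

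Ifit3, chr19:34583360-34583429, plus strand: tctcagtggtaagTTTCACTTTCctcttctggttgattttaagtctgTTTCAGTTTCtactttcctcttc

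Isg15, chr4:156200851-156200920, minus strand: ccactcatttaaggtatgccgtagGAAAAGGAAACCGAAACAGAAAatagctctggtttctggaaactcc

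Oas1a, chr5:120907526-120907595, minus strand: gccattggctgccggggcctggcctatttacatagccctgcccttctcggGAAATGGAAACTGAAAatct

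Rsad2, chr12:26456533-26456602, minus strand: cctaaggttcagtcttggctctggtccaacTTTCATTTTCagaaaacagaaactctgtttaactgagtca

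Gbp2, chr3:142620594-142620623, plus strand: actcttttagTTTCACTTTCactgtcttaa

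*Ifit1* and *Ifit3* each held a pair of matches, with first bases 104 and 85 bases upstream of the start of *Ifit1* and 156 and 122 bases upstream of that of *Ifit3*. The matches of *Isg15* began 78, 72 and 66 bases upstream, those of *Oas1a* 20 and 14 bases upstream, that of *Rsad2* 120 bases upstream and that of *Gbp2* 59 bases upstream. The *Irf7* window held neither set of letters. A match of letters is a description of the sequence, and binding was not measured.

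All 9 genes were expressed at low to moderate levels. Per length, the mean over the 6 groups was highest for *Irf7*, at 7.86 CPM per kilobase of exon, followed by *Isg15* (5.92), *Ifit3* (3.05), *Usp18* (2.91), *Ifit1* (1.54), *Zbp1* (1.23), *Rsad2* (1.01), *Gbp2* (0.992) and *Oas1a* (0.731). The counts behind these values ran from 248 to 1577 per library for *Irf7* and from 6 to 83 for *Oas1a*, so that *Oas1a* has the largest counting error. The mean level was highest in no-Cys-fed *Cse*+/- mice for 8 of the 9 genes and lowest in no-Cys-fed *Cse*-/- mice for 8 of the 9. The exceptions were *Zbp1*, highest in *Cse*+/- mice on the no-Trp diet, and *Usp18*, lowest in *Cse*+/- mice on the control diet. The groups with the highest and the lowest mean thus differed by genotype on the same diet for 7 genes, with ratios of means between 1.57 (*Rsad2*) and 2.27 (*Oas1a*).

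**Figure D1:**
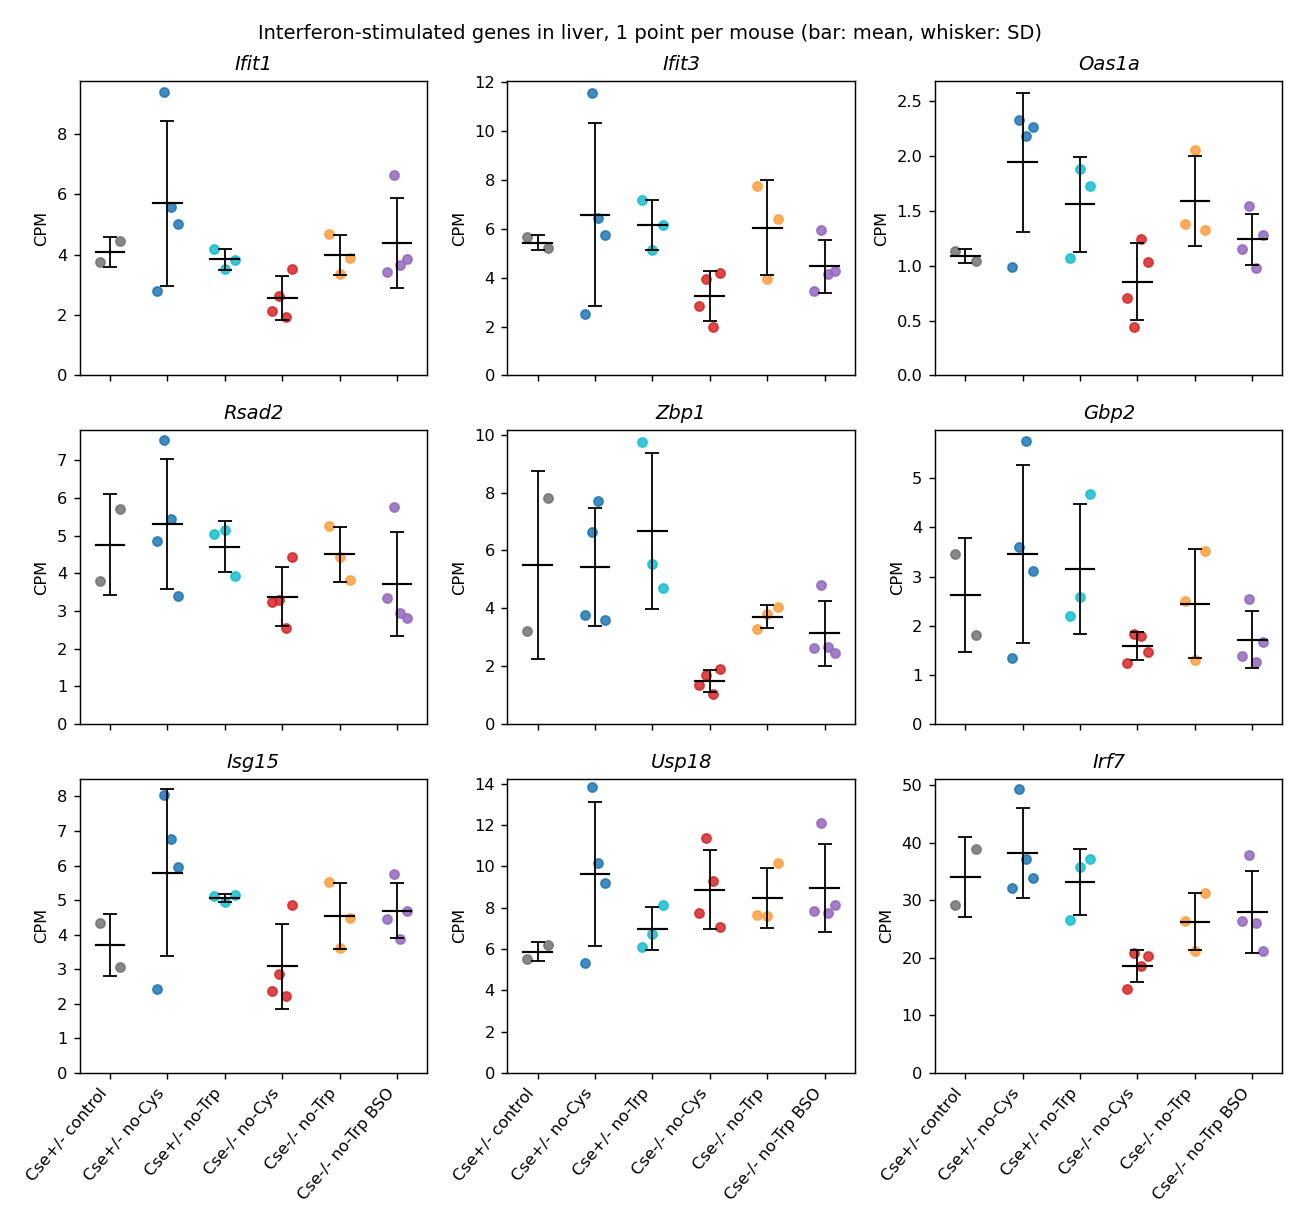
CPM of each of the 9 genes (vertical axis, linear from 0) in the 6 groups of mice (horizontal axis), with 1 point per mouse, bars for means and whiskers for SD. *Irf7* and *Zbp1* in *Cse*-/- no-Cys livers lie below every *Cse*+/- no-Cys liver, and 1 *Cse*+/- no-Cys mouse, av01, is low for most other genes.

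The first comparison asked how the absence of *Cse* changed these genes when cysteine was missing from the diet. On food without cysteine, 7 of the 9 genes fell in *Cse*-/- relative to *Cse*+/- mice, and none rose. The genes that fell encode the antiviral effectors IFIT1, IFIT3 and OAS1A, the sensor ZBP1, the GTPase GBP2, the modifier ISG15 and the transcription factor IRF7. Across all genes tested, 12.2% were called lower in this comparison by edgeR (adjusted p under 0.05). The median log2 fold change was −1.04 for the 9 members and −0.01 for all genes tested.

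*Zbp1* had the largest fold change of the members. It was at 3.79, 6.63, 7.70 and 3.61 CPM in *Cse*+/- mice (mean 5.43 ± 2.05, SD, n = 4) and at 1.36, 1.69, 1.05 and 1.92 CPM in *Cse*-/- mice (mean 1.50 ± 0.378, SD, n = 4). The groups did not overlap, and the level was 3.64-fold lower in *Cse*-/- mice (log2 fold change −1.87 with SE 0.351, edgeR adjusted p = 8.12e-04). *Irf7*, the most abundant member, was at 32.1, 49.4, 37.2 and 33.8 CPM in *Cse*+/- mice and at 14.6, 20.8, 18.6 and 20.4 CPM in *Cse*-/- mice. These groups did not overlap either, and *Irf7* fell by 1.04 in log2 units (SE 0.185, edgeR adjusted p = 5.19e-04).

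*Ifit1* was at 2.79, 9.38, 5.60 and 5.02 CPM in *Cse*+/- mice and at 2.12, 2.64, 1.92 and 3.54 CPM in *Cse*-/- mice. The lowest *Cse*+/- value, that of av01, lay between the *Cse*-/- values, and the log2 estimate was −1.18 (SE 0.296, edgeR adjusted p = 0.00686). *Ifit3* was at 2.52, 11.6, 6.45 and 5.73 CPM in *Cse*+/- mice and at 2.83, 3.96, 1.99 and 4.21 CPM in *Cse*-/- mice. Again only av01 lay within the *Cse*-/- range, and the log2 fold change was −1.04 (SE 0.336, edgeR adjusted p = 0.0299). *Ifit3* shares 46.6% of its 61-base words with its neighbour *Ifit3b*, so that its level is uncertain by the reads that fall on both. *Ifit3b* itself was not called (−0.75, edgeR adjusted p = 0.191).

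*Oas1a* was at 0.991, 2.33, 2.18 and 2.26 CPM in *Cse*+/- mice and at 0.708, 0.440, 1.24 and 1.03 CPM in *Cse*-/- mice. It fell by 1.18 in log2 units (SE 0.316, edgeR adjusted p = 0.0103), with av01 within the *Cse*-/- range. *Oas1a* shares 52.5% of its words with *Oas1g*, which itself fell by 1.08 (edgeR adjusted p = 0.025). *Gbp2* was at 1.35, 3.60, 5.75 and 3.11 CPM in *Cse*+/- mice and at 1.24, 1.83, 1.80 and 1.48 CPM in *Cse*-/- mice. Its log2 fold change was −1.13 (SE 0.389, edgeR adjusted p = 0.0403), with av01 again within the *Cse*-/- range.

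*Isg15* was at 2.43, 8.04, 6.77 and 5.94 CPM in *Cse*+/- mice and at 2.36, 2.86, 2.23 and 4.87 CPM in *Cse*-/- mice. Its log2 fold change was −0.94 (SE 0.286, edgeR adjusted p = 0.0227), and the groups overlapped at av01. *Usp18*, which encodes the protease acting on ISG15 conjugates, was not called. It was at 5.32, 13.8, 10.2 and 9.20 CPM in *Cse*+/- mice and at 7.73, 11.4, 9.31 and 7.08 CPM in *Cse*-/- mice, with the *Cse*-/- values inside the *Cse*+/- range. The log2 fold change of *Usp18* was −0.13 (95% interval −0.57 to 0.31, edgeR adjusted p = 0.716). This interval leaves out the estimate of *Isg15* but overlaps the 95% interval of *Isg15* (−1.50 to −0.38). A difference between these genes was not tested. *Rsad2* was at 4.87, 7.55, 5.44 and 3.40 CPM in *Cse*+/- mice and at 3.25, 3.30, 2.54 and 4.43 CPM in *Cse*-/- mice. These groups overlapped, and its log2 fold change of −0.66 (95% interval −1.17 to −0.15) missed the threshold (edgeR adjusted p = 0.0708).

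The other 12 livers place the low values of the no-Cys *Cse*-/- mice. *Zbp1* was at 3.21 and 7.80 CPM in *Cse*+/- control, at 9.74, 5.53 and 4.72 CPM in *Cse*+/- no-Trp, at 3.28, 3.80 and 4.06 CPM in *Cse*-/- no-Trp and at 2.62, 4.82, 2.67 and 2.47 CPM in *Cse*-/- BSO livers. *Irf7* was at 29.1 and 38.9 CPM in *Cse*+/- control, at 26.5, 35.7 and 37.2 CPM in *Cse*+/- no-Trp, at 26.4, 21.3 and 31.2 CPM in *Cse*-/- no-Trp and at 26.3, 37.9, 26.1 and 21.2 CPM in *Cse*-/- BSO livers. For both genes all 12 lay above the highest no-Cys *Cse*-/- liver. *Ifit1* was at 3.75 and 4.46 CPM in *Cse*+/- control, at 4.19, 3.51 and 3.83 CPM in *Cse*+/- no-Trp, at 4.70, 3.37 and 3.89 CPM in *Cse*-/- no-Trp and at 3.44, 6.63, 3.65 and 3.84 CPM in *Cse*-/- BSO livers. *Ifit3* was at 5.65 and 5.22 CPM in *Cse*+/- control, at 7.18, 5.12 and 6.17 CPM in *Cse*+/- no-Trp, at 7.77, 3.93 and 6.42 CPM in *Cse*-/- no-Trp and at 3.44, 5.96, 4.14 and 4.29 CPM in *Cse*-/- BSO livers. For *Ifit1* and for *Ifit3*, 9 of the 12 lay above the highest no-Cys *Cse*-/- liver and none below the lowest.

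The remaining members were closer to the no-Cys *Cse*-/- range. *Oas1a* was at 1.13 and 1.04 CPM in *Cse*+/- control, at 1.07, 1.88 and 1.73 CPM in *Cse*+/- no-Trp, at 1.38, 2.06 and 1.33 CPM in *Cse*-/- no-Trp and at 1.15, 1.54, 0.983 and 1.28 CPM in *Cse*-/- BSO livers. *Gbp2* was at 3.45 and 1.81 CPM in *Cse*+/- control, at 2.20, 2.58 and 4.67 CPM in *Cse*+/- no-Trp, at 2.50, 1.31 and 3.52 CPM in *Cse*-/- no-Trp and at 1.38, 2.55, 1.26 and 1.67 CPM in *Cse*-/- BSO livers. For each of these 2 genes, 7 of the 12 lay above the highest no-Cys *Cse*-/- liver. *Isg15* was at 4.34 and 3.06 CPM in *Cse*+/- control, at 5.12, 4.94 and 5.14 CPM in *Cse*+/- no-Trp, at 5.52, 3.62 and 4.48 CPM in *Cse*-/- no-Trp and at 4.47, 5.76, 3.86 and 4.68 CPM in *Cse*-/- BSO livers. *Rsad2* had means of 4.76 ± 1.34 CPM (SD, n = 2), 4.70 ± 0.678 CPM (SD, n = 3), 4.50 ± 0.730 CPM (SD, n = 3) and 3.72 ± 1.38 CPM (SD, n = 4) in the same order of groups. For *Isg15* and *Rsad2*, 5 of the 12 lay above the highest no-Cys *Cse*-/- liver. *Usp18* had means of 5.86 ± 0.469 CPM (SD, n = 2), 6.98 ± 1.04 CPM (SD, n = 3), 8.47 ± 1.46 CPM (SD, n = 3) and 8.95 ± 2.12 CPM (SD, n = 4), with 1 of the 12 above the highest and 4 below the lowest no-Cys *Cse*-/- liver.

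Ranges of *Cse*-/- and *Cse*+/- livers did not overlap for 2 of the 9 members, against 11.2% of all genes tested with *Cse*-/- lower. Without av01 they did not overlap for 7 of the 9, against 15.3% of all genes. Mouse av01 was the lowest of its group for 7 of the 9 members, and ranges without av08 were not set against all genes. The members called were 7 without av01 and 7 without av08, and 4 without av02, av05 or av07. *Rsad2* gained a call without av04 (edgeR adjusted p = 0.0281) and without av08 (0.0405), so that the 7 without av08 include *Rsad2* and not *Gbp2*. *Ifit1*, *Irf7*, *Oas1a* and *Zbp1* were called with any of the 8 mice left out, whereas *Gbp2* lost its call without any of them except av01 (highest edgeR adjusted p = 0.172), *Isg15* without av02, av03, av05, av06 or av07 (highest 0.0939) and *Ifit3* without av02, av05 or av07 (highest 0.18). DESeq2 called 7 members, and a fit restricted to these 2 groups called 5, without *Ifit3* and *Isg15*.

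In a bulk sample, fewer cells of a type and less RNA per cell cannot be told apart. Of 6 Kupffer cell markers none was called by edgeR or DESeq2 (1 lower at an unadjusted p under 0.05), with a median of −0.34 on the log2 scale and summed levels of 198 to 257 CPM in *Cse*+/- and 163 to 214 CPM in *Cse*-/- mice. Markers of T and NK cells summed to 1.71 to 3.34 CPM and 1.30 to 1.83 CPM, and 0 of the 4 tested were called by edgeR or DESeq2 (0 at an unadjusted p under 0.05), with a median of −0.67. Of 5 hepatocyte markers, 4 fell, among them *Alb* (−1.26, edgeR adjusted p = 4.79e-05) and *Ttr* (−1.04, edgeR adjusted p = 8.81e-05), and *Cps1* rose (0.58, edgeR adjusted p = 0.0457), and their summed level was 82173 to 105734 CPM in *Cse*+/- and 37967 to 65119 CPM in *Cse*-/- mice. All 3 red cell markers, *Hba-a1* (−2.05), *Hbb-bs* (−1.94) and *Alas2* (−1.48), fell, from 172 to 363 CPM in sum to 59.4 to 101 CPM. All 6 Kupffer and all 4 T and NK cell markers tested had estimates below 0, and with 12.2% of all genes called lower, lists of this size can hold no call.

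Among markers of other liver cells, *Cd79b* of B cells fell from 0.740 ± 0.307 to 0.287 ± 0.0804 CPM (SD, n = 4 each; log2 fold change −1.39, edgeR adjusted p = 0.0184), 1 of 2 tested, and the B cell markers summed to 1.35 to 3.39 CPM in *Cse*+/- and 0.708 to 1.33 CPM in *Cse*-/- mice. Of 4 stellate cell markers *Lrat* (−0.61, edgeR adjusted p = 0.0133) and *Colec11* (−0.36, edgeR adjusted p = 0.0264) fell, with sums of 233 to 272 CPM and 197 to 233 CPM. Of 3 cholangiocyte markers *Sox9* fell (−0.78, edgeR adjusted p = 0.0464), with sums of 6.77 to 14.5 CPM and 4.13 to 7.53 CPM. Sinusoidal endothelium went the other way in 1 of 4 markers, as *Lyve1* rose by 1.15 (edgeR adjusted p = 2.20e-04) while the sums were 114 to 147 CPM and 111 to 132 CPM. Its markers *Stab2* (−0.26) and *Clec4g* (−0.38) were lower at an unadjusted p under 0.05 without a call, and the median of the 4 was −0.08. No marker of monocytes and dendritic cells (4 tested, median −0.75) or of neutrophils (3 tested, median −1.10) was called by edgeR or DESeq2, and 0 were below an unadjusted p of 0.05. Monocyte and dendritic cell markers summed to 2.88 to 4.02 CPM and 1.74 to 3.03 CPM, and neutrophil markers to 2.33 to 4.87 CPM and 1.54 to 2.48 CPM. No marker of the 10 lists was at 0 in all livers of either no-Cys group. The part of these cells in the change of the interferon-stimulated genes was not tested.

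**Figure D2:**
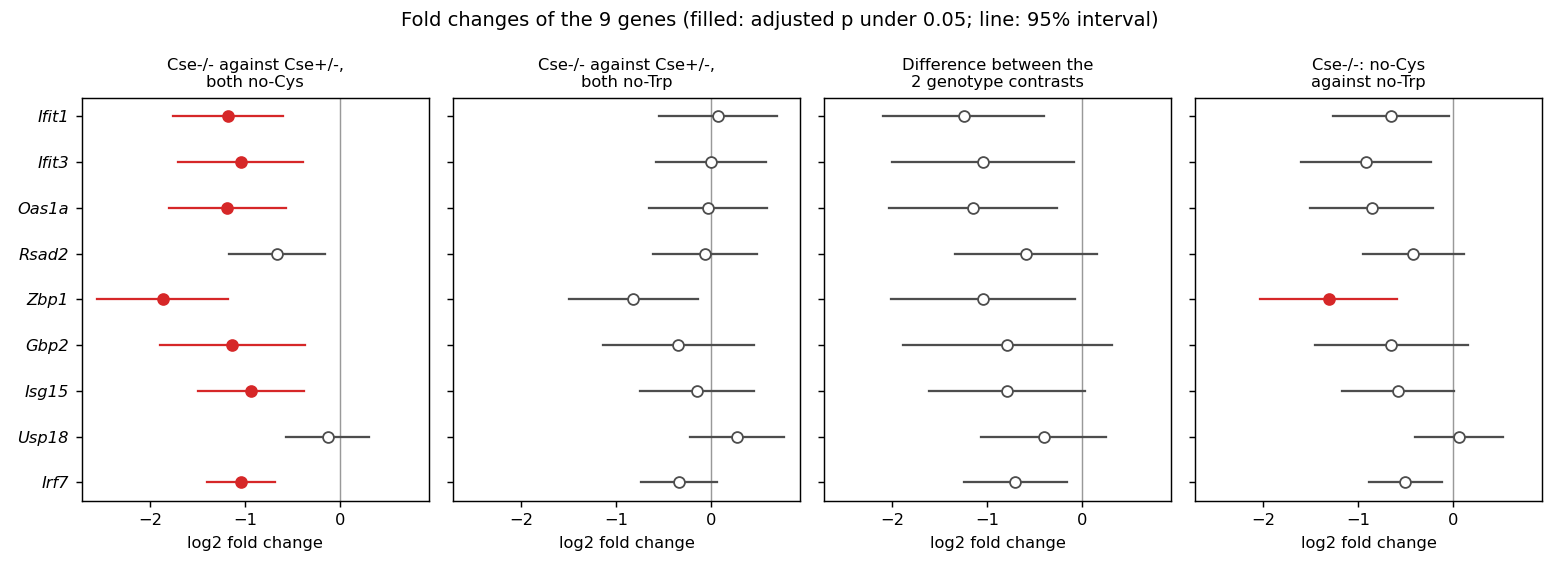
Log2 fold change of each gene (horizontal axis) in 4 comparisons, with lines for 95% intervals and filled points for an edgeR adjusted p under 0.05. On the no-Cys diet 7 genes are filled, on the no-Trp diet none is, and the difference between these 2 contrasts is below 0 for all 9 genes without a filled point.

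The same genotype comparison on the no-Trp diet asked whether the change was seen when tryptophan rather than cysteine was missing. None of the 9 genes was called by edgeR (1 lower at an unadjusted p under 0.05, 0 by DESeq2), and 2.64% of all genes were. Among the members the median was −0.07 on the log2 scale, and values ran from −0.82 (*Zbp1*) to 0.28 (*Usp18*). The *Zbp1* values of the genotypes did not overlap, 1 of the 9 members against 9.51% of all genes with *Cse*-/- lower, and the difference missed the threshold (edgeR adjusted p = 0.211). Those of *Ifit1* overlapped, with a log2 fold change of 0.07 (95% interval −0.55 to 0.69).

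Whether the genotype difference itself differed between the diets was tested as an interaction. All 9 estimates were below 0, that is lower in *Cse*-/- mice with the no-Cys than on the no-Trp diet relative to *Cse*+/- mice, with a median of −0.79. None of the 9 passed the threshold in edgeR or in DESeq2, while 5 were below an unadjusted p of 0.05 and 4.36% of all genes were called. The lowest adjusted p was that of *Ifit1* (log2 difference −1.25, SE 0.434, edgeR adjusted p = 0.108), which was called without av01. A difference between the diets in the genotype effect was therefore not shown for any member with all mice included. The estimates of the other genes ran from −1.15 (*Oas1a*) to −0.41 (*Usp18*). Markers of other cells were called in the same test, and their part was not tested. Of 4 markers of sinusoidal endothelium, *Lyve1* was called above 0 (1.30, edgeR adjusted p = 0.011). The other 3 had estimates below 0, 1 of them at an unadjusted p under 0.05. Of 5 hepatocyte markers, *Alb* (−0.997, edgeR adjusted p = 0.0345) and *Ttr* (−0.81, edgeR adjusted p = 0.0492) were called, with 4 estimates below and 1 above 0. All 3 red cell markers were below 0, and *Alas2* was called (−1.12, edgeR adjusted p = 0.0242).

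Within *Cse*-/- mice, the no-Cys diet was compared with the no-Trp diet. *Zbp1* was called lower on the no-Cys diet, with a mean of 1.50 ± 0.378 CPM (SD, n = 4), against 3.71 ± 0.398 CPM (SD, n = 3), with groups that did not overlap. This was a 2.49-fold lower level (log2 fold change −1.31 with SE 0.369, edgeR adjusted p = 0.0292). It was 1 of 9 members, and 5.35% of all genes were called lower. The call was lost without av05, av06, av07, av14 or av16 (highest edgeR adjusted p = 0.0835). Estimates were below 0 for 8 of the 9 members, with a median of −0.65. *Irf7* (−0.51, edgeR adjusted p = 0.104) and *Oas1a* (−0.86, edgeR adjusted p = 0.101) also had ranges that did not overlap, which makes 3 of the 9 members, against 9.82% of all genes tested with no-Cys lower. *Usp18* was at 0.06 (95% interval −0.40 to 0.53).

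BSO was added to the no-Trp diet to lower glutathione without removing cysteine. Against the no-Trp diet alone, none of the 9 genes was called in *Cse*-/- livers by edgeR or DESeq2, and none was below an unadjusted p of 0.05, with 0.793% of all genes called. Log2 fold changes ran from −0.57 (*Gbp2*, 95% interval −1.34 to 0.20) to 0.11 (*Ifit1*, 95% interval −0.47 to 0.69). Mouse av10 was the highest of the 4 BSO mice for all 9 genes.

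Set directly against the no-Cys diet in *Cse*-/- mice, the no-Trp diet with BSO had estimates above 0 for all 9 genes, from 0.0026 (*Usp18*, which turns negative under other settings) to 1.04 (*Zbp1*). No member was called by edgeR, with 4 higher at an unadjusted p under 0.05 and 2.75% of all genes called. DESeq2 called 2 members higher, *Irf7* and *Zbp1*. *Irf7* was above every *Cse*-/- no-Cys liver, with a log2 fold change of 0.58 (edgeR adjusted p = 0.0845, DESeq2 adjusted p = 0.0425). *Zbp1* was above every *Cse*-/- no-Cys liver as well (log2 fold change 1.04, edgeR adjusted p = 0.106, DESeq2 adjusted p = 0.0409). Ranges that did not overlap, with BSO higher, were found for 6.23% of all genes. This comparison shares the *Cse*-/- no-Cys livers with the preceding ones.

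In *Cse*+/- mice the diets were compared with the control diet, of which only 2 livers were analysed. On the no-Cys diet no member was called by edgeR or DESeq2, 2 were higher at an unadjusted p under 0.05, and 2.18% of all genes were called. *Usp18* was at 5.53 and 6.20 CPM on the control diet and had a mean of 9.63 ± 3.50 CPM (SD, n = 4) without cysteine, with an estimate of 0.73 on the log2 scale (95% interval 0.16 to 1.29, edgeR adjusted p = 0.201). *Oas1a* had means of 1.09 ± 0.061 CPM (SD, n = 2) and 1.94 ± 0.636 CPM (SD, n = 4), with an estimate of 0.85 (95% interval 0.10 to 1.59, edgeR adjusted p = 0.269). The median over the 9 members was 0.39, and *Zbp1* had the lowest estimate, at −0.0049. On the no-Trp diet no member was called by either tool, none was below an unadjusted p of 0.05, and 0.0474% of all genes were called. Estimates ran from −0.10 (*Ifit1*) to 0.56 (*Oas1a*).

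Within a group, the same mouse was often the highest or lowest for several members. Among no-Cys-fed *Cse*+/- mice, av02 was highest for 7 of the 9 genes and av01 lowest for 7 of the 9. As a summary, the mean log2 CPM of the 9 genes was taken relative to the *Cse*+/- control pair. It was 0.32 ± 0.55 (SD, n = 4) in *Cse*+/- no-Cys mice and −0.59 ± 0.22 (SD, n = 4) in *Cse*-/- no-Cys mice. The *Cse*+/- no-Cys mice ran from −0.41 to 0.86 and the *Cse*-/- no-Cys mice from −0.79 to −0.31, so that the lowest *Cse*+/- mouse lay within the *Cse*-/- range. The *Cse*+/- no-Trp mice had 0.20 ± 0.06 (SD, n = 3), the *Cse*-/- no-Trp mice 0.04 ± 0.18 (SD, n = 3) and the BSO mice −0.13 ± 0.34 (SD, n = 4).

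**Figure D3:**
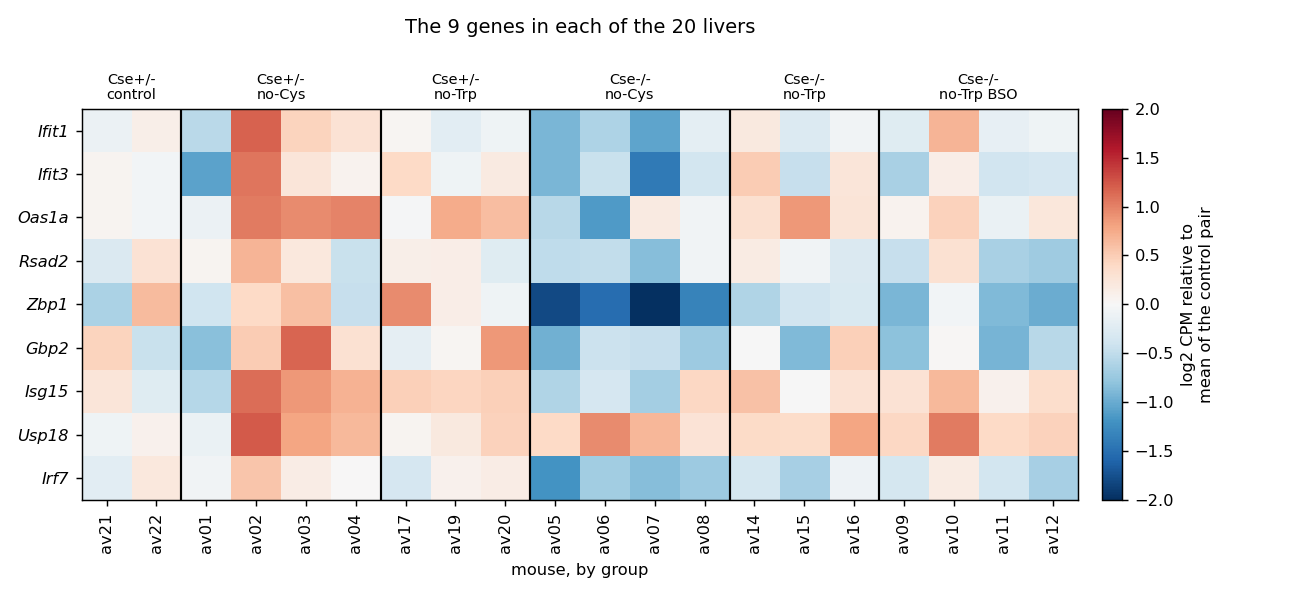
Log2 CPM of each gene (rows) in each mouse (columns, by group), relative to the mean of the pair of *Cse*+/- control livers, with blue for lower and red for higher values on a scale from −2 to 2. *Zbp1* has the lowest value of the 9 genes in each of the 4 *Cse*-/- no-Cys livers, *Usp18* is pale or red there, and av01 and av10 differ from their groups across genes.

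Genes outside the members were ranked by the Pearson correlation of their log2 CPM with the mean scaled profile of the 9 members over the 20 libraries, which share the groups and the scaling. The 10 most alike were *Irgm1* (r = 0.917), *Lyn* (0.916), *Trim12c* (0.901), *Ifi203* (0.890), *Abcb10* (0.888), *Rtp4* (0.887), *Hsd3b5* (0.885), *Ly6a* (0.881), *Shisa5* (0.866) and *Ormdl1* (0.866). After the group means were removed, their r was between 0.730 (*Ormdl1*) and 0.887 (*Shisa5*). *Irgm1* encodes an interferon-induced GTPase, and *Rtp4* and *Ifi203* are interferon-induced genes, whereas *Hsd3b5* encodes a male-biased steroid dehydrogenase of hepatocytes, *Abcb10* a mitochondrial transporter and *Lyn* a kinase of the Src family. Of the members themselves, *Ifit1* followed the profile most closely (r = 0.936) and *Usp18* least (r = 0.419, and 0.806 within groups). Each member is part of the profile, which raises its r, so that these values cannot be set beside those of the genes outside.

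The wider interferon pathway was described with 11 lists of 133 genes in all, of which 116 could be tested. Between genotypes on food without cysteine, 56 of these fell and 2 rose in *Cse*-/- mice, where 12.2% of all genes were called lower. With 1 mouse left out the number called was between 38 (without av02) and 57 (without av01). A fit restricted to both groups called 45 and DESeq2 60.

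Interferons themselves were scarcely counted. Of 10 interferon genes, 8 had 0 counts in all 20 libraries, including *Ifnb1* and 4 *Ifna* genes, which allows a level of up to 0.0517 CPM in the deepest and 0.255 CPM in the shallowest library, for counting error only. *Ifng* had 6 counts and *Ifnk* 22 counts over all libraries. Of 5 receptor genes tested, *Ifngr2*, a chain of the interferon-γ receptor (log2 fold change −0.31, edgeR adjusted p = 0.0291), and *Il10rb*, a chain of the interferon-λ receptor (−0.52, edgeR adjusted p = 0.0119), fell in no-Cys-fed *Cse*-/- mice. The call of *Ifngr2* was lost without av03, av04, av07 or av08 (highest edgeR adjusted p = 0.086) and that of *Il10rb* without av03 or av07 (highest 0.0543).

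Of 10 genes of JAK-STAT and IRF signalling, 5 fell and 1 rose, with a median of −0.39. *Irf5*, a transcription factor of the Toll-like receptor pathway, fell from 15.03 ± 4.79 to 6.09 ± 1.36 CPM (SD, n = 4 each; log2 fold change −1.31, edgeR adjusted p = 3.84e-04). *Stat2*, a transcription factor of the type I interferon response, fell from 90.9 ± 11.1 to 61.4 ± 10.2 CPM (SD, n = 4 each; log2 fold change −0.56, edgeR adjusted p = 0.00241). *Irf3*, which induces interferon β, rose by 0.22 (edgeR adjusted p = 0.017). All 3 kept their call with any 1 of the 8 mice left out.

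Among 11 nucleic acid sensors and adaptors, *Dhx58* (LGP2, −0.92, edgeR adjusted p = 0.00673) and *Tlr3* (−0.61, edgeR adjusted p = 0.0303), receptors for double-stranded RNA, fell. *Ticam1*, the adaptor of TLR3, rose (0.49, edgeR adjusted p = 0.00841). *Dhx58* and *Ticam1* were called with any 1 mouse left out, whereas *Tlr3* lost its call without av01, av02, av03, av05 or av07 (highest edgeR adjusted p = 0.119). Of 7 brakes on the pathway, *Trim30a* fell (−0.65, edgeR adjusted p = 0.0491), a call that was lost without av02, av03, av05, av07 or av08 (highest edgeR adjusted p = 0.184) and with RLE factors. Lower calls for 2 of 11 sensors and 1 of 7 brakes stand against 12.2% of all genes called lower, so that 1 gene more or less decides the difference in share.

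Of 45 further antiviral effectors tested, 23 fell and none rose in edgeR or DESeq2, with a median of −0.68. *Ly6e*, which restricts virus entry, fell from 235 ± 54.8 to 86.1 ± 27.4 CPM (SD, n = 4 each; log2 fold change −1.45, edgeR adjusted p = 1.92e-04), and the helicase gene *Ddx60* fell by 1.57 (edgeR adjusted p = 9.92e-04). The number called in this list was 12 without av02 and 14 in a fit restricted to both groups. Of 16 GBP and immunity-related GTPases, 9 fell and none rose, among them *Ifi47* (−1.31, edgeR adjusted p = 0.00419) and *Gbp3* (−1.12, edgeR adjusted p = 0.00389), with 5 called without av02.

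All 10 genes of interferon-induced antigen presentation fell, with a median of −0.65. The immunoproteasome subunit gene *Psmb8* had the largest change, from 20.1 ± 3.79 to 6.04 ± 1.29 CPM (SD, n = 4 each; log2 fold change −1.74, edgeR adjusted p = 2.87e-06), and *Psmb10* fell by 1.06 (edgeR adjusted p = 3.53e-05). Leaving out any 1 mouse left 9 or 10 of them called.

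In the ISG15 pathway, *Uba7*, the activating enzyme (−0.50, edgeR adjusted p = 0.0309), and the ligase gene *Herc6* (−0.91, edgeR adjusted p = 6.33e-04) fell, 2 of the 3 genes tested. Of 4 chemokine genes, *Cxcl9* fell (−1.46, edgeR adjusted p = 0.00402). Of 5 partners of ZBP1, *Ripk3*, the kinase of necroptosis, fell from 1.74 ± 0.667 to 0.801 ± 0.106 CPM (SD, n = 4 each; −1.11, edgeR adjusted p = 0.0293). *Uba7* was not called without av02, av05, av06 or av07 (highest edgeR adjusted p = 0.17), nor *Ripk3* without av01, av05, av06 or av07 (highest 0.104). The single lower call among chemokines and among ZBP1 partners likewise stands against 12.2% of all genes.

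Few pathway genes were called in the other comparisons, and most of these calls were lost with some mouse left out. Within *Cse*-/- mice 10 of the 116 fell on the no-Cys relative to the no-Trp diet, against 5.35% of all genes, with between 3 and 14 called with 1 mouse left out, 2 in a fit restricted to both groups and 17 with DESeq2. *Psmb10* (−0.67, edgeR adjusted p = 0.008) was called with any of the 7 mice left out. *Tlr3* (−0.80, edgeR adjusted p = 0.0181) lost its call without av07, and *Ifitm3*, which blocks the entry of enveloped viruses (−0.69, edgeR adjusted p = 0.00937), without av14. *Psmb8* (−0.70), *Stat2* (−0.44), *B2m*, the light chain of MHC class I (−0.38), *Rtp4* (−0.90), the ubiquitin ligase gene *Dtx3l* (−0.43), the GTPase gene *Igtp* (−0.47) and the chemokine gene *Cxcl10* (−1.38) had edgeR adjusted p between 0.0266 and 0.0461, and each lost its call without 4 or more of the 7 mice. Of 5 hepatocyte markers, *Apoa1*, *Ttr* and *Serpina1c* fell in the same comparison (−0.62 to −0.72), and 1 had an estimate above 0 (0.36). Of 4 stellate cell markers *Colec11* fell (−0.38), and 2 of the 4 had estimates above 0. The red cell marker *Alas2* fell (−0.68), and all 3 red cell markers were below 0. The part of these cells was not tested.

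With BSO, *Tlr3* was the 1 pathway gene of 116 called against the no-Trp diet alone, where 0.793% of all genes were called. It was at 3.13 ± 0.162 CPM (SD, n = 4) with and 5.70 ± 0.354 CPM (SD, n = 3) without BSO (−0.86, edgeR adjusted p = 0.044). This call was lost with any 1 of the 7 mice left out (highest edgeR adjusted p = 0.151). Relative to the no-Cys diet, 6 pathway genes were higher on the no-Trp diet with BSO, against 2.75% of all genes called. The number was between 0 (without av05) and 9 (without av08) with 1 mouse left out, 3 in a fit restricted to both groups and 7 with DESeq2. The 6 genes were *Psmb8* (0.93, edgeR adjusted p = 0.0129, lost without av05 or av06), *Psmb10* (0.67, edgeR adjusted p = 0.0189, lost without av05, av06, av07 or av09), *Ifitm2* (0.67), *Ifitm3* (0.61), the proteasome activator gene *Psme1* (0.39) and *Tapbp*, which encodes tapasin (0.30). The last 4 had edgeR adjusted p between 0.0261 and 0.0457 and lost their calls without 5 or more of the 8 mice. Of 5 hepatocyte markers, *Apoa1*, *Ttr* and *Serpina1c* were higher by 0.73 to 0.82 in this comparison, and 1 had an estimate below 0 (−0.39). Their part was not tested.

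Between genotypes on the no-Trp diet 5 pathway genes fell and 1 rose, against 2.64% of all genes called. The number was between 1 (without av15) and 9 (without av14) with 1 mouse left out, 1 in a fit restricted to both groups and 11 with DESeq2. *Irf5* (−1.05), *Psmb8* (−0.87), *Ifitm2* (−0.71), *Ifi27*, an interferon-induced gene (−0.57), and *Myd88*, the adaptor of Toll-like receptors (−0.61), fell, and *Ticam1* rose (0.59). Their edgeR adjusted p lay between 0.0193 and 0.0488, and each lost its call without 3 or more of the 6 mice. In *Cse*+/- mice 3 pathway genes were higher on the no-Cys than on the control diet, against 2.18% of all genes called. *Rigi*, a sensor of viral RNA (0.75, edgeR adjusted p = 0.00648), and *Irf9*, a transcription factor of the type I interferon response (0.66, edgeR adjusted p = 0.0138), lost their call without either control mouse and in a fit restricted to both groups. *Ifngr2* (0.49, edgeR adjusted p = 0.0454) lost its call without 5 of the 6 mice (highest edgeR adjusted p = 0.377) and in the same restricted fit. All 6 Kupffer cell markers had estimates above 0 in this comparison (median 0.45, highest 1.49), with 0 called by edgeR, 3 at an unadjusted p under 0.05 and 1 higher by DESeq2. Their summed level was 170 to 197 CPM on the control and 198 to 257 CPM on the no-Cys diet, and their part was not tested.

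**Figure D4:**
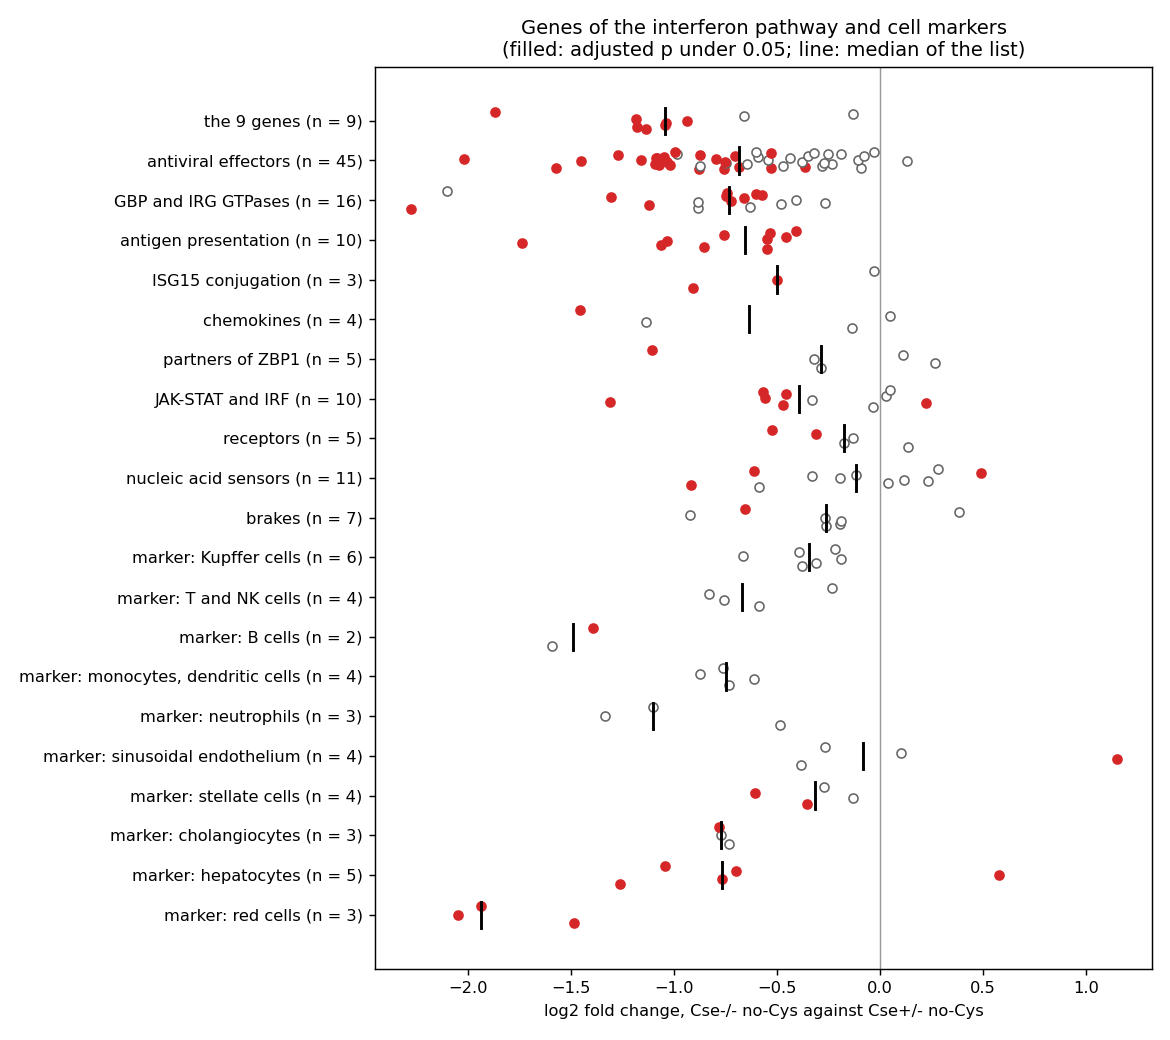
Log2 fold change on the no-Cys diet, *Cse*-/- against *Cse*+/- (horizontal axis), of each tested gene in the pathway lists and in 10 marker lists (rows), with filled points for an edgeR adjusted p under 0.05 and black lines for medians. Antiviral effectors, GTPases and antigen presentation genes lie almost all below 0, Kupffer cell markers lie between −0.67 and −0.19 with no filled point, and red cell markers lie at −1.48 or below.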

How the data were processed

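Poly(A) RNA of 20 livers was sequenced from both ends. The submitters' processing notes name HISAT2 2.1.0 and HTSeq 0.11.0. The authors aligned the reads to GRCm38, counted them per gene with an annotation release not given in the sources used here, and deposited raw counts. A strand setting was not stated, so that reads on exons shared with antisense genes cannot be told apart (45 bases or 1.19% of *Irf7*, 124 bases or 4.44% of *Usp18*, 24 bases or 0.954% of *Gbp2*). Columns are named by mouse and were placed in groups through the study's list of animals, and 1 column of the table without a listed condition was not used.

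Symbols, positions and exon lengths came from GENCODE M21 and promoters from RefSeq (GRCm38.p6). Counts were tested with edgeR 4.0.16 in R 4.3.3 (filterByExpr with a minimum count of 10 and a minimum total of 15, TMM factors, quasi-likelihood F test, two-sided), in 1 fit with a mean per group over all 20 libraries. The p-values were adjusted by the Benjamini-Hochberg method over 14759 genes, with a threshold of 0.05. Intervals of 95% take the standard error as normal. CPM are TMM-scaled, and log2 CPM used a prior count of 2. Totals set the precision: libraries held 11785740 to 57986121 counts. Pairs of mice of a group differed by a chi-square per gene of 9.6 to 64.2, so that none was a repeat of another.

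Alternatives were the test of DESeq2 1.42.0, factors by RLE or by upper quartile, keeping all genes, keeping genes with a mean CPM of 1 or more, fitting the compared groups without the rest, thinning to the shallowest library, other prior counts (0.5 and 5) and leaving out each mouse. Counts were also simulated for all 20 libraries (14488 genes tested), with 99 genes changed 2-fold and 99 changed 4-fold in *Cse*-/- no-Cys livers, in either direction. Between genotypes on the no-Cys diet 74.7% of the 2-fold and 90.9% of the 4-fold changes were recovered with 8 false calls. The changed genes were of any level, and fewer than those called in the real comparison. Recovery at the counts of the members was not given by this. From the pathway lists, 1 gene was left out of all counts and is not reported here. The members, lists, comparisons and alternatives were chosen with earlier results of these data known. Every member is given. From each pathway list the genes named in a comparison are all those called where 4 or fewer were, and otherwise the 2 with the largest change in each direction at a mean CPM of at least 1. Python 3.11.15 with pandas 2.3.3, numpy 2.4.6 and matplotlib 3.10.9 made the summaries and plots.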

Additional observations from a re-analysis of the deposited data

Results flagged for a closer look

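In groups of 4 mice, a mouse was singled out where its gap to the nearest other took a larger share of the group's range than Dixon's 95% critical value, which chance does in about 1 of 20 groups, and 27 such groups were examined over the 9 genes. Mouse av10, on the no-Trp diet with BSO, stood apart for *Ifit1* (6.63 CPM, next 3.84 CPM), *Usp18* (12.1 CPM, next 8.14 CPM) and *Zbp1* (4.82 CPM, next 2.67 CPM). Mouse av01, a *Cse*+/- mouse on the no-Cys diet, stood apart for *Oas1a* (0.991 CPM, next 2.18 CPM).

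For 3 pathway genes outside the members, the effect of genotype differed between the no-Cys and the no-Trp diet by edgeR's interaction test. These are 3 of 116 tested, against 4.36% of all genes, and none of the 116 was called in a fit restricted to the groups compared while DESeq2 called 8. The differences were −0.84 for *Rnf213* (edgeR adjusted p = 0.0469), −1.69 for *Ddx60* (edgeR adjusted p = 0.0378) and 1.28 for *Socs3* (edgeR adjusted p = 0.0473). *Rnf213* had a log2 fold change of −0.87 on the no-Cys and −0.03 on the no-Trp diet, *Ddx60* −1.57 and 0.12, and *Socs3*, a feedback inhibitor of cytokine signalling, 0.38 and −0.89. Each call was lost without 10 or 11 of the 14 mice in turn. With 1 mouse left out the highest edgeR adjusted p was 0.119 for *Rnf213*, 0.0873 for *Ddx60* and 0.125 for *Socs3*. Markers of hepatocytes (*Alb* and *Ttr*, 2 of 5), sinusoidal endothelium (*Lyve1*, 1 of 4) and red cells (*Alas2*, 1 of 3) were called in the same test. *Lyve1* was above 0 and the other 3 endothelial markers were below 0. The part of these cells was not tested.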

How the results depend on the processing

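No paired analysis was possible because the columns of the table are named by mouse and carry none of the replicate numbers of the labels. On the no-Cys diet the number of members called between genotypes was 7 with DESeq2, 5 in a fit restricted to both groups, and between 4 and 7 with 1 mouse left out. For *Cse*-/- mice on the no-Cys against the no-Trp diet it was 2 with no filter (*Ifit3* and *Zbp1*), 0 with thinning, and between 0 and 1 with 1 mouse left out. For BSO against the no-Cys diet DESeq2 and no filter each called 2, and for the interaction the number with 1 mouse left out was between 0 and 1. Estimates near 0 changed sign, and the cause was not tested. *Usp18* for BSO against no-Cys was −0.0033 with DESeq2, −0.0052 with RLE factors and −0.0022 in a fit restricted to both groups, and between −0.17 and 0.14 with 1 mouse left out. With 1 mouse left out it was between −0.32 and 0.10 for genotype on the no-Cys diet and between −0.082 and 0.21 for no-Cys against no-Trp. *Zbp1* for *Cse*+/- mice on the no-Cys against the control diet was 0.0059 with a mean CPM of at least 1 and between −0.52 and 0.76 with 1 mouse left out. *Ifit1* was between −0.15 and 0.24 for BSO against no-Trp, and between −0.22 and 0.033 for *Cse*+/- mice on the no-Trp against the control diet. Leaving out 1 of the control pair assumes that the other varies like the remaining groups. Low counts limit *Oas1a* and *Gbp2* most, which had as few as 6 and 15 counts in a library.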
